A study of Rattus norvegicus with 6 samples.

Results

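The genes described here are 10 genes of asparagine metabolism and of the amino acid response driven by the transcription factor ATF4, read in gastrocnemius, a calf muscle of mostly fast fibres. They were chosen by gene symbol, with earlier results of these data known: Asns, Asrgl1, Atf4, Ddit3, Trib3, Chac1, Psat1, Phgdh, Cth and Sesn2. The array's gene annotation named a row for 9 of the 10, out of 14506 genes in all, and no row could be matched to Sesn2. Psat1 had 2 rows, and the one with the higher mean over the arrays was used. All 9 measured genes were kept, since no filter on dim genes was applied.

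RNA came from male Sprague-Dawley rats with diet-induced obesity, which ate 1 of 3 high-fat, high-sucrose diets freely for 8 weeks, from 12 weeks of age until 20 weeks of age. The control diet held casein as its protein, at 10% of energy. The dairy diet held complete dairy protein from skim milk powder at the same share, and the leucine diet held 7.1% of energy as casein and 2.9% as leucine. All 3 diets had 4.6 kcal/g. Each diet was represented by 2 Affymetrix arrays, 6 in all, although 4 rats per diet were planned, and the labels do not say whether an array held 1 rat or a pool. Separate animals are therefore not assured, and p-values measure only the spread between these arrays. The labels name muscle, while the protocol texts name liver as the tissue that was stored and extracted.

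When an amino acid runs short, uncharged transfer RNA activates the kinase GCN2, which phosphorylates the translation factor eIF2alpha. Most translation slows, but the Atf4 messenger RNA is translated more, and the ATF4 protein induces genes for amino acid synthesis and uptake and, under lasting stress, for its own feedback and for cell death. Much of the control of ATF4 thus acts on translation, which an RNA array does not read. Asparagine synthetase, the product of Asns, is a classic target of this response. Asparaginase like 1, from Asrgl1, acts on asparagine in the opposite direction and splits it into aspartate and ammonia.

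ATF4 binds, with partners of the C/EBP family, to a composite element that was searched here as TGATGNAA on both strands, N being any base. RefSeq promoter windows of the GRCr8 assembly were available for all 10 genes, each 300 bases long, from 250 bases before the transcription start to 50 after it. The letters occurred in 2 of the 10 windows, Chac1 and Trib3, and in 3.98% of all 33469 windows. In both they lay on the strand opposite to the gene, so that they read TTNCATCA in the direction of transcription. The windows of the asparagine pair are shown beside those of Chac1 and Trib3, because these 4 genes are compared below, and capitals mark the matched letters. The Asns window lies at chr4:36769366-36769665, the Asrgl1 window at chr1:215456139-215456438 and the Trib3 window at chr3:161275484-161275783, all on the minus strand. The Chac1 window lies at chr3:126795881-126796180 on the plus strand.
Chac1: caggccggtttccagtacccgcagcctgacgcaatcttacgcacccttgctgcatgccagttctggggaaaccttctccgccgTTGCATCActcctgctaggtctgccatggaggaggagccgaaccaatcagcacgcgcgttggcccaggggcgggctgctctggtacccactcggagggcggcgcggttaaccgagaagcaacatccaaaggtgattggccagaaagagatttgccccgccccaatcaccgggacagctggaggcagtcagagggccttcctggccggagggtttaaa
Trib3: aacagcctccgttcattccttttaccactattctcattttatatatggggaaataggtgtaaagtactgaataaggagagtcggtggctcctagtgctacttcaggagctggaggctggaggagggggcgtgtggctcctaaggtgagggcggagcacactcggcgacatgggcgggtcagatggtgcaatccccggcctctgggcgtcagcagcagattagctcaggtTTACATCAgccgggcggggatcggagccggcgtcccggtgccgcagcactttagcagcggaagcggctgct
Asns: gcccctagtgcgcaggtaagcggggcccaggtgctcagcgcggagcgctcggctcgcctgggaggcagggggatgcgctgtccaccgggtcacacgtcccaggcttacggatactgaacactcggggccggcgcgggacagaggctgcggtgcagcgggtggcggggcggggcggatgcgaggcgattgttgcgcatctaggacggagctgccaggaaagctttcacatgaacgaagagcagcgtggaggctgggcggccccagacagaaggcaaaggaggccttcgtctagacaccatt
Asrgl1: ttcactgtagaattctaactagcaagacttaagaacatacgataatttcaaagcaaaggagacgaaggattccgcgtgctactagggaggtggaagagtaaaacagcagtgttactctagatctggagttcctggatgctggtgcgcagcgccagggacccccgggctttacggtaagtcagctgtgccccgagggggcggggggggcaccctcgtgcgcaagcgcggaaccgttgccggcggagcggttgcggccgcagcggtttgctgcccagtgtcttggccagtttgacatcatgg
The match spanned bases 84 to 91 of the Chac1 window and bases 230 to 237 of the Trib3 window. The absence of a match in the Asns and Asrgl1 windows says only that these letters are not in this stretch.

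The arrays were checked for tissue before the genes were compared. Fast-fibre markers had a mean log2 signal between 12.1 and 12.6 on every array. Casein array 2 stood apart from the other 5, with a mean correlation of 0.974 with them against 0.985 to 0.988 for the rest. On that array the 10 slow-fibre markers had a mean log2 signal of 5.82, against 9.26 to 9.88 elsewhere. The 12 hepatocyte markers had a mean of 6.86 there and of 3.40 to 5.40 elsewhere, and all 12 were highest on it. The 10 inflammatory markers had a mean of 6.05 there and of 3.74 to 3.93 elsewhere. Since this array is 1 of the 2 controls, differences from casein are read together with their values when a casein array is left out.

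Asrgl1 separated the 3 diets most clearly among the 9 genes. Its log2 signal was 5.03 and 5.15 on the casein arrays, 5.93 and 5.76 on the dairy arrays and 6.10 and 6.09 on the leucine arrays. Both casein arrays lay lowest, both dairy arrays lay between, and both leucine arrays lay highest, with no overlap between any pair of diets. The means were 5.09 ± 0.089 with casein, 5.84 ± 0.12 with dairy and 6.10 ± 0.010 with leucine (SD, n = 2 each).

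Against casein, Asrgl1 was 2.01-fold higher with leucine, a log2 fold change of 1.01 ± 0.09 (SE) with a 95% interval of 0.76 to 1.25. It was 1.69-fold higher with dairy, at 0.76 ± 0.09 with an interval of 0.51 to 1.00. These comparisons share the casein arrays. Between the leucine and dairy diets the difference was 1.19-fold, at 0.25 ± 0.09 with an interval of 0.0087 to 0.49. By limma the unadjusted p was 0.00023, 0.000763 and 0.045, in that order, and in each comparison with casein Asrgl1 had the 6th smallest p of all genes. None passed the threshold of 0.05 after adjustment over all genes, with an adjusted p of 0.353, 0.833 and 0.871. Across the alternatives tried, the adjusted p ranged from 0.116 to 0.542 against casein for leucine and from 0.164 to 0.984 for dairy.

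The 2 casein arrays differed by 0.13 in Asrgl1, and without casein array 2 the log2 fold change was 1.07 for leucine and 0.82 for dairy. Leaving out any single array gave 0.94 to 1.07 for leucine, 0.67 to 0.84 for dairy and 0.17 to 0.34 for leucine against dairy. Most slow-fibre markers stood in the same order of diet means as Asrgl1. All 10 had a higher mean with leucine and with dairy than with casein. With leucine against dairy 8 were higher and 2 lower, with a median difference of 0.26. Leucine and dairy arrays were fully separated in 5 that were higher, against 13.4% of all genes. They were also separated in 1 that was lower, Myh7b, against 14.9%. The slow-fibre markers had a mean log2 signal of 9.54 and 5.82 on the casein arrays and of 9.26 and 9.36 with dairy. With leucine it was 9.37 and 9.88. Casein array 1 thus lay above both dairy arrays and leucine array 1 in these markers and below all 4 in Asrgl1; the part of fibre type in the Asrgl1 values was not tested. Because the tissue was profiled in bulk, more cells of a type and more RNA per cell cannot be told apart.

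Asns did not separate all 3 diets in this way. Its log2 signal was 2.97 and 3.73 on the casein arrays, 2.97 and 2.87 on the dairy arrays and 2.71 and 2.92 on the leucine arrays. Casein array 2 alone was high, and casein array 1 shared its exact value with dairy array 1. Both leucine arrays lay below both casein arrays, but the nearest values were 2.92 and 2.97. The dairy and leucine arrays overlapped. The log2 fold change was −0.54 ± 0.28 (SE) for leucine against casein, with a 95% interval of −1.28 to 0.20, and −0.43 ± 0.28 for dairy against casein, with an interval of −1.17 to 0.31. The limma adjusted p was 0.632 and 0.833. Without casein array 2 these values were −0.16 and −0.050, and without casein array 1 they were −0.92 and −0.81. Leucine and dairy differed by −0.11 ± 0.28, with an interval of −0.85 to 0.63. The Asns signal lay below the median gene, at a mean of 3.03 over the 6 arrays against a median of 4.15 over gene means.

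**Figure D1:**
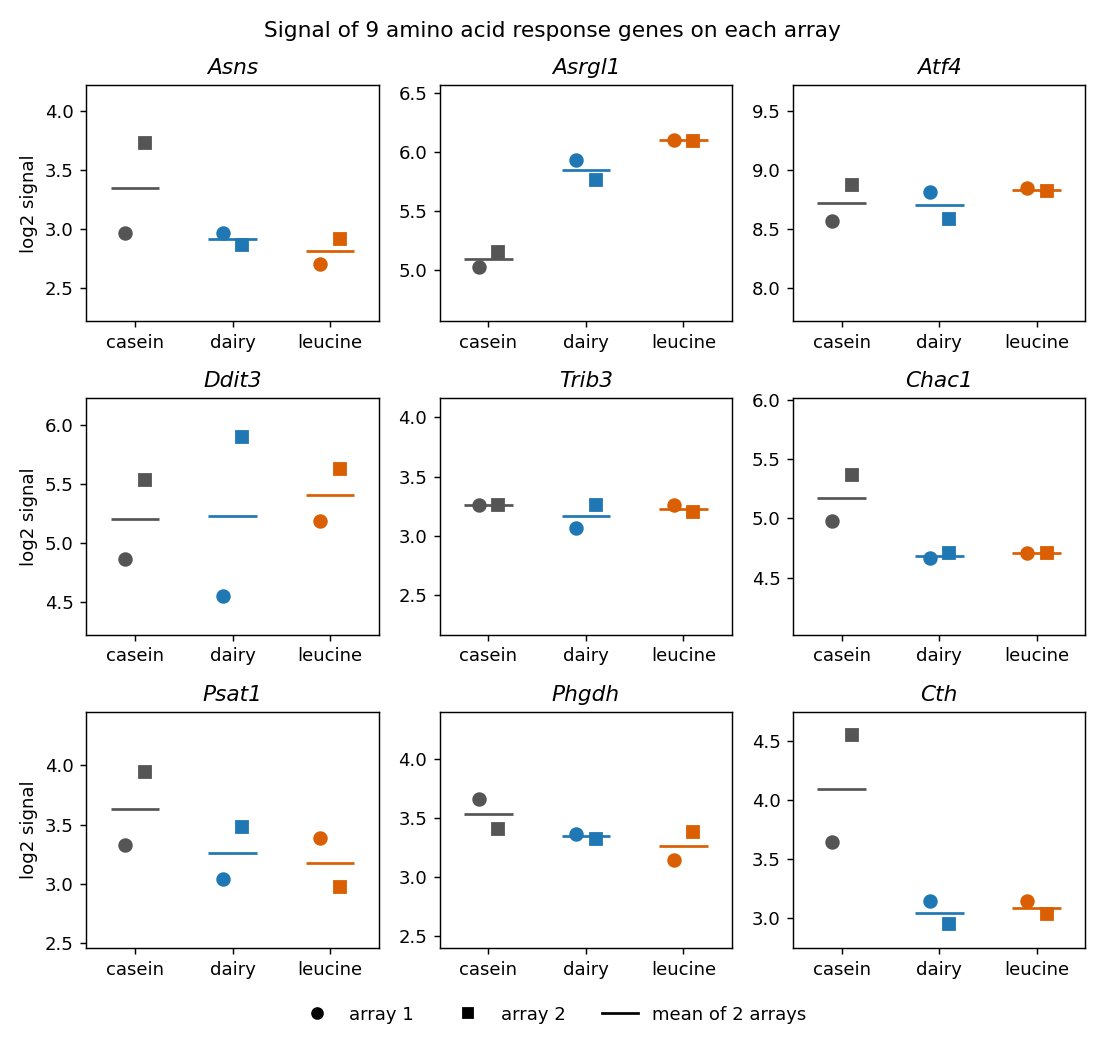
Log2 signal (vertical axis) of the 9 measured genes on each of the 6 arrays by diet (horizontal axis); circles are array 1, squares array 2 and bars the mean of 2 arrays, and every panel spans the same range of log2 units. Asrgl1 runs from 5.03 and 5.15 with casein up to 6.09 and 6.10 with leucine without overlap. The highest values of Asns, Psat1, Chac1 and Cth are on casein array 2, at 3.73, 3.94, 5.37 and 4.55. For Chac1 and Cth casein array 1 also lies above all dairy and leucine arrays, at 4.97 and 3.64.

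By limma none of the regulators Atf4, Ddit3 and Trib3 passed the threshold after adjustment in any comparison. Atf4, which encodes the transcription factor itself, had a range of 0.31. That was the smallest among the 4 of the 9 genes that lay above the median gene. Its log2 signal was 8.57 and 8.88 on the casein arrays, 8.81 and 8.59 on the dairy arrays and 8.85 and 8.82 on the leucine arrays. The 2 casein arrays enclosed every dairy and leucine value. The log2 fold change was 0.11 ± 0.14 for leucine against casein, with a 95% interval of −0.26 to 0.49, and −0.019 ± 0.14 for dairy against casein, with an interval of −0.40 to 0.36. Both directions turned when a casein array was left out, the first to −0.041 without array 1 and the second to 0.14 without array 2. Leucine lay above dairy without overlap, at 0.13 ± 0.14, with an adjusted p of 0.903 by limma.

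Ddit3 encodes CHOP, a transcription factor of prolonged stress that ATF4 induces. Its log2 signal was 4.87 and 5.53 with casein, 4.55 and 5.90 with dairy and 5.19 and 5.62 with leucine. The dairy arrays held both the lowest and the highest value, so the spread within that diet was wider than any difference between diets. The log2 fold changes were 0.21 ± 0.53 for leucine against casein, 0.025 ± 0.53 for dairy against casein and 0.18 ± 0.53 for leucine against dairy. The 95% interval of the first ran from −1.23 to 1.64. With 1 array left out, all 3 turned direction, to as low as −0.13, −0.65 and −0.49.

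Trib3 encodes a pseudokinase that ATF4 and CHOP induce and that feeds back on ATF4. Its log2 signal was 3.26 on both casein arrays, 3.06 and 3.26 on the dairy arrays and 3.26 and 3.20 on the leucine arrays. The exact value 3.26056 was shared by 4 of the 6 arrays. Such equal values are common in the deposited table: 60.8% of all genes had the same value on at least 2 arrays, and the share fell with brightness, from 81.0% in the dimmest of 4 equal groups of genes to 32.8% in the brightest. The log2 fold change of Trib3 was −0.032 ± 0.089 for leucine and −0.098 ± 0.089 for dairy against casein, and 0.066 ± 0.089 between them. The direction for leucine was 0.056 after quantile normalization and 0.031 after median centring. The Trib3 signal lay below the median gene.

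Chac1 and Cth both act on cysteine and glutathione, and both stood lower with leucine and with dairy than with casein. Chac1, an ATF4 target that degrades glutathione, had a log2 signal of 4.97 and 5.37 on the casein arrays. It was 4.66 and 4.70 on the dairy arrays and 4.70 on both leucine arrays, where 3 of these 4 values were identical. Both casein arrays lay above the other 4. Chac1 had a log2 fold change of −0.47 ± 0.14 for leucine, 1.38-fold lower, and −0.49 ± 0.14 for dairy, 1.40-fold lower. The unadjusted p was 0.0283 and 0.0248 by limma, and the adjusted p was 0.453 and 0.833. Without casein array 2 the values were −0.27 and −0.29. Between leucine and dairy the difference was 0.019 ± 0.14, with a 95% interval of −0.37 to 0.41.

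Cth encodes cystathionine gamma-lyase, which makes cysteine in the last step of transsulfuration and which is abundant in liver. Its log2 signal was 3.64 and 4.55 on the casein arrays, 3.14 and 2.94 on the dairy arrays and 3.14 and 3.03 on the leucine arrays. Both casein arrays lay above the other 4, and casein array 2 exceeded every other array by 0.91. The means were 4.09 ± 0.64 with casein, 3.04 ± 0.14 with dairy and 3.09 ± 0.077 with leucine (SD, n = 2 each). Cth had a log2 fold change of −1.01 ± 0.32 for leucine, with a 95% interval of −1.87 to −0.14, and −1.05 ± 0.32 for dairy, with an interval of −1.91 to −0.19. The limma unadjusted p was 0.0313 and 0.0272, and the adjusted p was 0.465 and 0.833. Without casein array 2 the values were −0.55 and −0.60, and without casein array 1 they were −1.46 and −1.50. The difference between leucine and dairy was 0.044 ± 0.32, with an interval of −0.82 to 0.91.

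Phgdh and Psat1 encode the enzymes of the first and second steps of serine synthesis, both targets of ATF4. Phgdh had a log2 signal of 3.66 and 3.41 with casein, 3.37 and 3.32 with dairy and 3.14 and 3.38 with leucine. Here casein array 1 was the highest, and the lower casein value, 3.41, lay just above the highest of the other 4, 3.38. The log2 fold change was −0.27 ± 0.13 for leucine, with an adjusted p of 0.616, and −0.19 ± 0.13 for dairy, with an adjusted p of 0.833. Without casein array 1 these were −0.15 and −0.061, and without casein array 2 −0.40 and −0.31. The value for leucine was also −0.15 without leucine array 1.

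Psat1 had a log2 signal of 3.32 and 3.94 with casein, 3.04 and 3.48 with dairy and 3.39 and 2.97 with leucine. The 3 diets overlapped, and casein array 2 was the highest. Psat1 had a log2 fold change of −0.45 ± 0.30 for leucine against casein and −0.37 ± 0.30 for dairy against casein, which became −0.14 and −0.063 when casein array 2 was left out and −0.76 and −0.68 when array 1 was. The value for leucine was −0.24 without leucine array 2, and that for dairy −0.16 without dairy array 1 and −0.59 without dairy array 2. The other row annotated to Psat1 was dimmer, between 1.65 and 2.67, and was lowest on casein array 2. On that row the log2 fold change for leucine against casein was 0.34, opposite to the first row. Both rows lay below the median gene.

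Sesn2, a leucine sensor that ATF4 induces and that restrains mTORC1 when leucine is scarce, could not be read. Its relatives Sesn1 and Sesn3, which belong to the same family, were measured and are given for that reason. Sesn1 had a log2 signal of 7.07 and 6.70 with casein, 6.96 and 6.75 with dairy and 7.04 and 6.81 with leucine. The diets overlapped, and the log2 fold change was 0.039 ± 0.17 for leucine and −0.030 ± 0.17 for dairy against casein. Without casein array 2 these were −0.15 and −0.22, and without casein array 1 they were 0.23 and 0.16. Sesn3 had 5.99 and 5.01 with casein, 6.09 and 5.56 with dairy and 5.58 and 5.71 with leucine, with log2 fold changes of 0.15 ± 0.38 and 0.32 ± 0.38. Both turned direction without casein array 2, to −0.34 and −0.17, and were 0.64 and 0.81 without casein array 1.

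**Figure D2:**
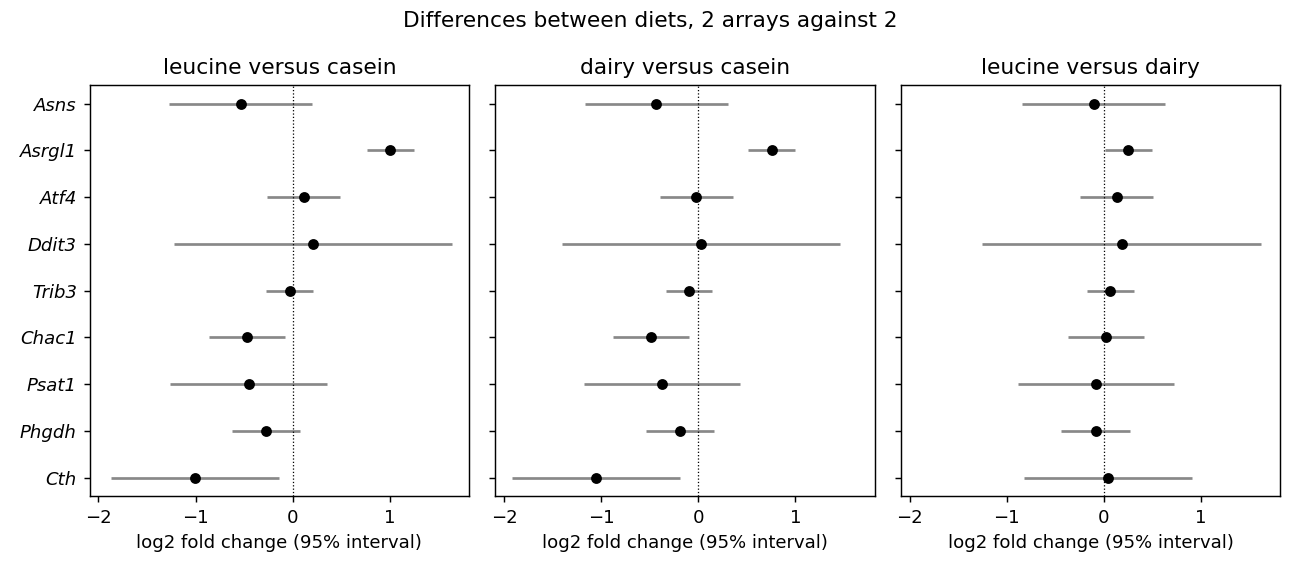
Log2 fold change (horizontal axis) of each of the 9 genes (vertical axis) in the 3 comparisons; points are estimates from 2 arrays against 2 and lines are 95% intervals of the limma fit. Asrgl1 stands right of 0 in all 3 panels, at 1.01, 0.76 and 0.25, Cth and Chac1 stand left of 0 against casein, and the intervals of the other genes cross 0.

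Counted over the 9 genes, leucine against casein gave 0 with an adjusted p under 0.05 by limma, as did all 14506 genes (0%). An unadjusted p under 0.05 was found in 3 of 9, Asrgl1, Chac1 and Cth, against 9.61% of all genes. It was higher in 1 of these, against 4.76% of all genes, and lower in 2, against 4.85%. Leucine and casein arrays were fully separated in 5 of 9, against 31.5% of all genes. Asrgl1 was the 1 higher, against 15.9%, and Asns, Chac1, Phgdh and Cth were the 4 lower, against 15.6%. The median log2 fold change of the 9 was −0.27, and that of all genes was 0. The 9 genes were chosen with earlier results of these data known. These counts and those of the other comparisons are therefore not independent of that choice.

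Dairy against casein gave 0 adjusted calls among the 9 and among all genes (0%), and an unadjusted p under 0.05 for Asrgl1, Chac1 and Cth too, against 4.80% of all. Asrgl1 was the 1 higher, against 2.49% of all genes, and the other 2 were lower, against 2.31%. Dairy and casein arrays were fully separated in 4 of 9, against 23.2% of all genes, with 1 higher against 11.5% and 3 lower against 11.7%. The median of the 9 was −0.19 and that of all genes 0.0028. Leucine against dairy gave 0 adjusted calls (0% of all genes), 1 unadjusted p under 0.05, that of Asrgl1, against 5.70% of all and 2.25% in the same direction (3.45% were lower). The arrays were fully separated in 2 of 9, Asrgl1 and Atf4, both higher, against 28.3% of all genes, 13.4% higher and 14.9% lower. The median of the 9 was then 0.044. A moderated F test over the 3 diets called 0 genes (0%), and its unadjusted p was under 0.05 for Asrgl1, Chac1 and Cth, at 0.000531, 0.0412 and 0.0454, against 7.25% of all genes.

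Casein array 2 was the single highest array for 5 of the 9 genes, Asns, Atf4, Chac1, Psat1 and Cth, against 21.5% of all genes. The other 5 arrays were each the single highest for 12.3% to 16.6% of all genes (casein array 1 for 14.9%, dairy array 1 for 15.9%, leucine array 2 for 13.8%). In Atf4 it exceeded the next array by only 0.030. The hepatocyte markers were highest on the same array, with Alb, the albumin gene, at 11.7 there and 4.81 to 9.80 elsewhere. The second highest mean of the hepatocyte markers, 5.40, was on leucine array 2, where Cth stood at 3.03 and Chac1 at 4.70, both at the level of the other leucine and dairy arrays. Most of the list was second highest on that array, but Tat, Cyp2e1 and Pck1 were not. Tat and Cyp2e1 were 2.81 and 3.33 there and second highest on casein array 1, at 3.48 and 3.55. Cth was second highest on casein array 1 too, at 3.64. Pck1 was second highest on dairy array 1, at 6.065. The part of the hepatocyte and inflammatory transcripts in the casein values of Asns, Cth, Chac1 and Psat1 was not tested.

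**Figure D3:**
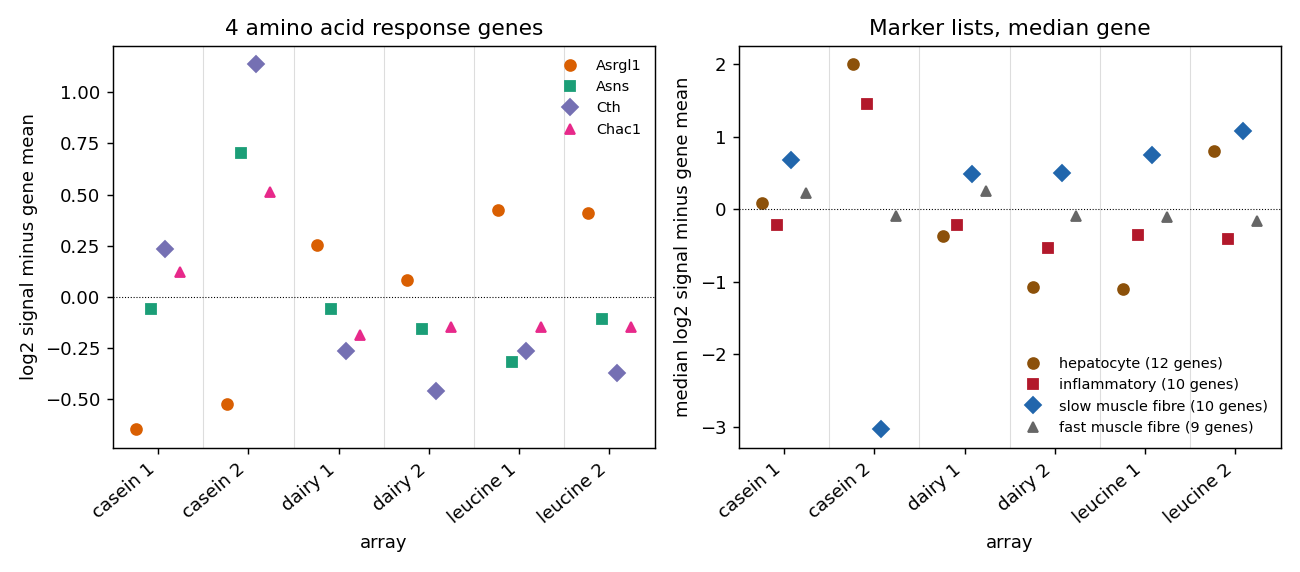
Log2 signal minus the mean over 6 arrays (vertical axes) on each array (horizontal axes), for Asrgl1, Asns, Cth and Chac1 at left and for the median gene of 4 marker lists at right. Casein array 2 holds the highest Asns, Cth and Chac1 values together with the highest hepatocyte median and the lowest slow-fibre median, −3.04, whereas Asrgl1 is low on both casein arrays.

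Genes with the most similar pattern over the 6 arrays were sought among the genes above the median gene, 7252 for Asrgl1 and 7253 for Asns, by the root-mean-square difference of gene-centred log2 values. The nearest to Asrgl1 were Nup37, a nuclear pore subunit, at 0.11, Prkx, a protein kinase, at 0.14 and Hat1, a histone acetyltransferase, at 0.15. For scale, the Asrgl1 profile itself had a root-mean-square of 0.43. Nup37 had log2 signals of 4.84 and 5.05 with casein, 5.64 and 5.42 with dairy and 6.04 and 6.02 with leucine, the same order of diets. The nearest to Asns were Sema6d, a semaphorin, at 0.073, the class I histocompatibility gene RT1-CE15 at 0.078 and Rab11fip3, a vesicle traffic protein, at 0.080. Sema6d was 5.62 and 6.43 with casein and between 5.21 and 5.62 on the other 4 arrays, with casein array 2 the high one. All these genes were picked for likeness over the same 6 arrays, so the shared patterns hold by construction. RT1-CE15 belongs to a family of near-identical genes, whose signals such probes may share.

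The other genes of the pathway were read in 9 lists with 94 symbols, of which 87 were measured. These lists too were chosen with earlier results of these data known. By limma 0 of the 87 passed after adjustment in any of the 3 comparisons. For leucine against casein 8 of the 87 had an unadjusted p under 0.05, against 9.61% of all genes. All 8 were lower, against 4.85% of all genes. For dairy against casein 1 did, against 4.80% of all genes, and it was lower, against 2.31%. For leucine against dairy 6 did, against 5.70% of all genes. Of these 1 was higher, against 2.25%, and 5 were lower, against 3.45%. As background for the counts of direction below, 49.1% of all genes stood higher and 50.0% lower with leucine than with casein, 51.2% and 47.6% with dairy than with casein, and 49.0% and 49.0% with leucine than with dairy.

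Among the 14 transcription factors and feedback genes that ATF4 induces, 10 were lower and 4 higher with leucine than with casein, with a median of −0.18 that was 0.073 without casein array 2 and −0.42 without casein array 1. Nupr1, a stress-induced chromatin protein, had a log2 signal of 5.92 and 5.77 with casein, 5.77 and 6.17 with dairy and 5.11 and 4.95 with leucine. Both leucine arrays lay below all others. Its log2 fold change was −0.81 ± 0.16 against casein, 1.76-fold lower, and −0.93 ± 0.16 against dairy, with an unadjusted p of 0.00634 and 0.00371 and an adjusted p of 0.366 and 0.514. Without casein array 2 the first was −0.89. Eif4ebp1, which encodes a repressor of translation that mTORC1 inactivates, was 7.58 and 8.09 with casein, 7.54 and 7.63 with dairy and 6.99 and 7.17 with leucine. It stood 1.69-fold lower with leucine than with casein, at −0.76 ± 0.19 with an adjusted p of 0.412, and at −0.50 without casein array 2. Against dairy it was −0.51 ± 0.19. Sqstm1, an autophagy receptor, had −0.15 ± 0.11 against casein, or −0.060 without leucine array 1 and −0.23 without leucine array 2. With dairy against casein the list's median was −0.0048, with 8 lower and 6 higher, and −0.26 without casein array 1. With leucine against dairy it was −0.016, or −0.10 without dairy array 1.

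Macrophage and adipocyte markers were also lowest on the leucine arrays. The 10 macrophage markers had a mean log2 signal of 4.28 and 4.45 with leucine and of 4.50 to 5.47 on the other 4 arrays, and all 10 had a lower mean with leucine than with casein and than with dairy. The 8 adipocyte markers had 4.36 and 4.44 with leucine and 4.59 to 5.48 elsewhere, with 6 of 8 lower than with casein and 8 of 8 lower than with dairy. The part of these cells in the Nupr1 and Eif4ebp1 values was not tested.

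The secreted factors Fgf21 and Gdf15 had log2 fold changes with medians of −0.069, −0.0096 and −0.060 in the comparisons of leucine with casein, dairy with casein and leucine with dairy. The median of the 2 turned to 0.017 for leucine and 0.075 for dairy after quantile normalization. Amino acid transporters under ATF4 control, 10 genes, were lower in 6 with leucine and in 9 with dairy, with medians of −0.16 and −0.067. Without casein array 2 these medians were 0.028 and −0.024, and without casein array 1 −0.42 and −0.33. Casein array 2 was the highest of the 6 for 7 of the 10. Slc38a2, the sodium-coupled neutral amino acid transporter SNAT2, stood at 10.3 and 10.1 with leucine and 9.91 and 10.1 with dairy, a difference of 0.20 ± 0.41 without overlap that was 0.10 without dairy array 1 and 0.12 without leucine array 1. The casein arrays were 9.50 and 10.7 and enclosed the other 4.

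Of 11 serine, glycine and one-carbon enzymes, 7 were lower with leucine and 10 with dairy than with casein, with medians of −0.095 and −0.075. Shmt2, the mitochondrial serine hydroxymethyltransferase, lay between 6.27 and 6.36 on all 6 arrays. Of 9 transsulfuration and glutathione genes, 6 were lower with leucine, with a median of −0.012 that was −0.16 without casein array 1 and 0.027 without casein array 2. With dairy 5 were higher, with a median of 0.069 that was −0.16 without casein array 1 and 0.16 without array 2. Cdo1, which oxidises cysteine, was 5.10 and 6.92 on the casein arrays, 5.997 and 4.48 with dairy and 4.67 and 4.87 with leucine. Its log2 fold change for leucine was −1.24 ± 0.81, or −0.32 without casein array 2 and −2.15 without array 1. Cdo1 was highest on casein array 2 and next on dairy array 1, and the adipocyte marker mean was too, at 5.48 and 5.43. The part of adipocyte transcripts in the Cdo1 values was not tested. Csad, which takes part in taurine synthesis, was −0.42 ± 0.14 for leucine, with an adjusted p of 0.467, and −0.24 without casein array 2. Ggct, of glutathione breakdown, was 0.19 ± 0.11 for leucine, with 0.064 and 0.31 when leucine array 1 or 2 was left out, and 0.26 ± 0.11 for dairy. Gclc, the catalytic subunit of glutathione synthesis, was −0.49 ± 0.37 for leucine against dairy, or −0.16 without leucine array 1 and −0.81 without leucine array 2.

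Of 9 measured enzymes of asparagine, aspartate and glutamine metabolism, 5 were lower and 4 higher both with leucine and with dairy against casein, with medians of −0.023 and −0.0065. Got1, the cytosolic enzyme that interconverts aspartate and glutamate, was 9.97 and 9.74 with casein, 9.58 and 10.3 with dairy and 10.5 and 10.4 with leucine. Both leucine arrays lay above the rest, with a log2 fold change of 0.61 ± 0.27 against casein and 0.52 ± 0.27 against dairy, and adjusted p of 0.576 and 0.903. The value against dairy was 0.16 without dairy array 1 and 0.88 without dairy array 2. Nars2, the mitochondrial asparaginyl-tRNA synthetase, was 5.63 and 5.01 with casein, 5.92 and 5.71 with dairy and 5.94 and 5.71 with leucine. It stood at 0.50 ± 0.24 for leucine and 0.49 ± 0.24 for dairy, or 0.19 and 0.18 without casein array 2 and 0.81 and 0.80 without array 1. Ass1, which joins citrulline and aspartate, was −0.76 ± 0.42 and −1.03 ± 0.42, or −0.17 and −0.44 without casein array 2 and −1.36 and −1.62 without array 1. Casein array 2 gave 5.90 for Ass1, and the other 5 arrays gave 4.23 to 4.71. The hepatocyte and inflammatory marker means were highest on casein array 2 as well, and their part in the Ass1 values was not tested. Asl, the next enzyme, was −0.13 ± 0.086 for dairy, or −0.040 without dairy array 1 and −0.22 without dairy array 2. Gpt2, a mitochondrial alanine aminotransferase, was −0.29 ± 0.15 for leucine against dairy, or −0.49 without leucine array 1 and −0.093 without leucine array 2.

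Upstream of ATF4, the 15 genes of the eIF2alpha kinases, eIF2 and eIF2B had 11 higher both with leucine and with dairy against casein, with medians of 0.085 and 0.053. The first was 0.0078 without casein array 2 and 0.17 without casein array 1, and the second was −0.016 after quantile normalization. Eif2b2, a subunit of the eIF2 exchange factor, was 0.45 ± 0.19 for leucine, or 0.28 without casein array 2 and 0.24 without leucine array 2. Eif2s1, which encodes eIF2alpha itself, lay between 6.78 and 7.07 on the 6 arrays, and Eif2s3, the gamma subunit, between 7.84 and 8.02. Eif2ak3, the kinase PERK of the endoplasmic reticulum, was 0.28 ± 0.12 for dairy against casein, or 0.15 without casein array 2 and 0.18 without dairy array 1. In the list of sestrins and GATOR2 partners, the complex that sestrins bind, 4 of 7 genes were measured. Their medians were 0.092, −0.046 and −0.013 in the comparisons of leucine with casein, dairy with casein and leucine with dairy, and the first was −0.12 without casein array 2. Sec13, a member of GATOR2 and of coat proteins, was −0.28 ± 0.14 for leucine against casein, and it was −0.094 when casein array 2 was left out and −0.46 when array 1 was.

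Of 13 measured endoplasmic reticulum stress genes outside the PERK arm, 8 were lower with leucine than with casein and 8 lower than with dairy, with medians of −0.063 and −0.095. Calr, the chaperone calreticulin, had a log2 signal of 8.26 on both casein arrays, 8.32 and 8.26 on the dairy arrays and 7.77 and 7.94 on the leucine arrays. Both leucine arrays lay below the other 4, and 3 of those 4 held the same value. Its log2 fold change was −0.41 ± 0.083 against casein, 1.33-fold lower, and −0.44 ± 0.083 against dairy, at an adjusted p of 0.366 and 0.526, and the first was also −0.41 when either casein array was left out. Herpud1, of protein degradation at the reticulum, was −0.45 ± 0.18 and Creld2, a secreted stress protein, −0.40 ± 0.22 against casein. Herpud1 was −0.30 without leucine array 2, and Creld2 was −0.17 without casein array 2 and −0.63 without casein array 1. Atf6 and Pdia4 were 0.16 ± 0.099 and 0.12 ± 0.10 for dairy against casein, and Atf6 was 0.28 without casein array 2 and 0.033 without casein array 1. Macrophage and adipocyte markers were lowest with leucine too, as given above. On casein arrays 1 and 2 the macrophage mean was 4.50 and 5.47 and the adipocyte mean 4.89 and 5.48, while Calr was equal. The part of these cells in the Calr values was not tested.

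**Figure D4:**
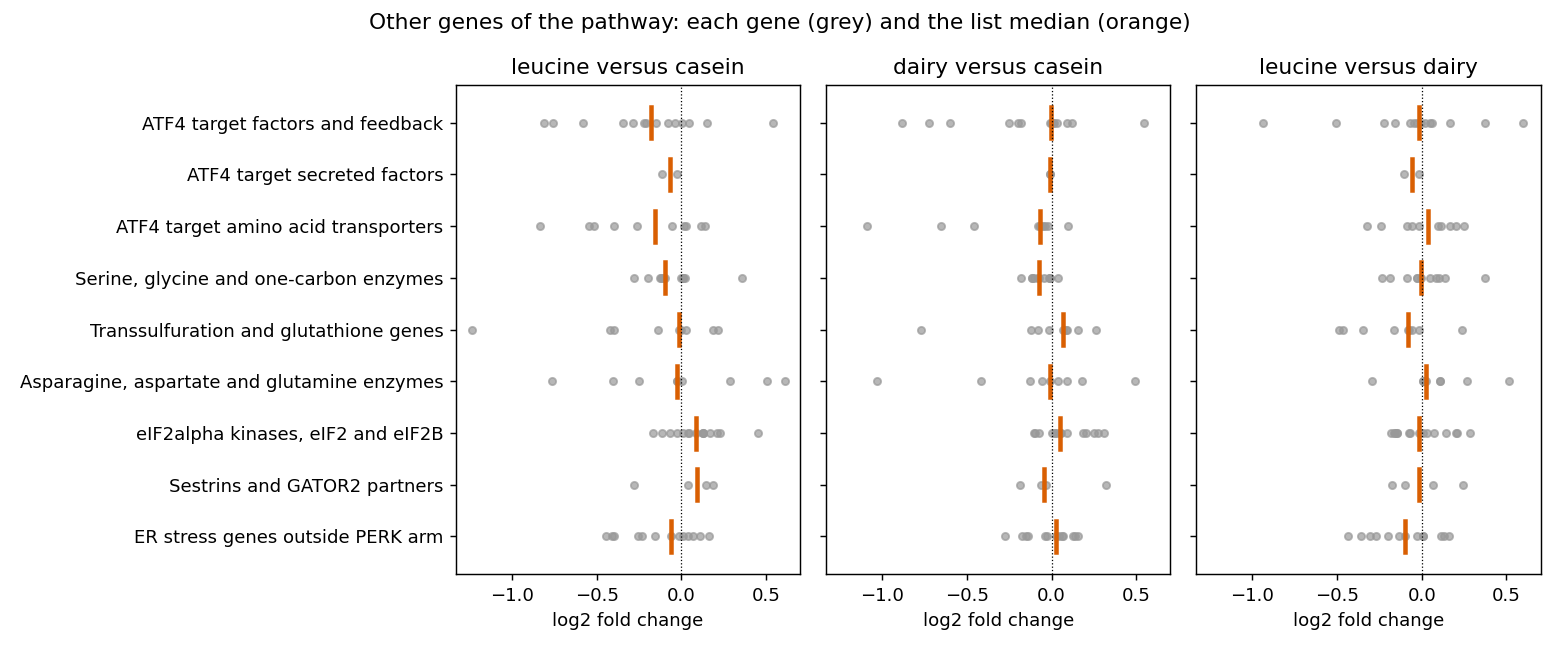
Log2 fold change (horizontal axis) of every measured gene of 9 pathway lists (grey points) with the list's median (orange bars), in the 3 comparisons. The medians lie between −0.18 and 0.092 in all 3 panels, and 0 of the 87 genes passed the limma threshold after adjustment.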

How the data were processed

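RNA of 6 muscle samples, 2 per diet, was measured on Affymetrix Rat Gene 1.0 ST arrays. The deposited table holds a log2 signal for every transcript cluster on every array. According to the submitters' processing notes, the authors used Affymetrix Expression Console. Its version and its settings for background, scaling and probe summary are not given in the sources used here. Array medians lay between 3.46 and 3.56, and detection above background is unknown. Of 29214 clusters, 15310 had 1 gene in the platform annotation, and current symbols came from the gene identifier for 15279. The cluster with the highest mean was used per symbol, leaving 14506 genes. Diets were compared with limma 3.58.1 in R 4.3.3, with 1 model over all 6 arrays, 3 residual degrees of freedom and Benjamini-Hochberg adjustment over all genes (threshold 0.05). An exact permutation test of 2 arrays against 2 cannot go below p = 0.333 and was not used. Fold changes carry the model's SE and levels the SD over 2 arrays. In simulated data for leucine against casein, with 14506 genes, 48.2% of 2-fold and 76.9% of 4-fold changes were recovered. The simulated noise was normal and independent between genes, with no equal values and no array set apart. These shares therefore do not tell how often such changes would be found on the real arrays. Alternatives were other scalings, a filter on dim genes, limma-trend, array weights, pairwise fits, a replicate block and leaving out each array. The genes and lists were chosen with earlier results of these data known. From each list, genes past the threshold were to be named; where fewer than 2 passed, up to 3 with the smallest p, a level above the median gene and no overlap between the diets are named, so their separation is by construction. Marker lists (hepatocyte, fast and slow fibre, macrophage, adipocyte, inflammatory) were read as levels.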

Additional observations from a re-analysis of the deposited data

How the results depend on the processing

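Over all genes, 0 were called in any of the 3 comparisons under 2 other scalings, the filter on dim genes, limma-trend, array weights or fits of only the diets compared. The replicate block also gave 0, with a lowest adjusted p of 0.402 for leucine against casein, 0.783 for dairy against casein and 0.694 for leucine against dairy; the deviations of same-numbered arrays correlated at 0.179, 0.0865 and 0.0536, so same-numbered arrays were not treated as pairs, and the block changed no call. With arrays left out, the count ranged from 0 to 1 for leucine and for dairy against casein. The single gene was Il6 without casein array 1, with adjusted p of 0.0445 and 0.0379, so that casein array 2 alone was the control; it stood at 6.97 there and at 1.999 to 2.403 elsewhere. Asrgl1, Asns, Chac1 and Cth kept their direction against casein in every alternative that gave them a value; Asns and Cth lie below the median gene and have none under the filter on dim genes.

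Directions turned as follows, and the cause was not tested. Quantile normalization gave 0.056 for Trib3 with leucine and −0.0385 for Ddit3 with dairy, and median centring gave 0.031 for Trib3 with leucine and 0.028 for Atf4 with dairy, all against casein. The other Psat1 row gave 0.34 for leucine against casein and 0.42 against dairy. With single arrays left out, leucine against casein ranged from −0.041 to 0.27 for Atf4 and from −0.13 to 0.54 for Ddit3. Dairy against casein ranged from −0.17 to 0.14 for Atf4 and from −0.65 to 0.70 for Ddit3. Leucine against dairy ranged from −0.49 to 0.85 for Ddit3, −0.032 to 0.16 for Trib3, −0.30 to 0.14 for Psat1, −0.20 to 0.036 for Phgdh and −0.055 to 0.14 for Cth.

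List medians moved by more than their spread between arrays as follows. Quantile normalization gave, for leucine against casein, 0.017 for secreted factors and −0.0004 for serine and one-carbon enzymes. For dairy against casein it gave −0.11 for ATF4-induced factors, 0.075 for secreted factors, −0.0365 for serine enzymes, −0.076 for asparagine enzymes and −0.016 for eIF2 genes, and for leucine against dairy 0.027 for serine enzymes. Median centring gave −0.033 for serine enzymes, 0.0395 for asparagine enzymes and 0.15 for eIF2 genes with leucine, and −0.028 for serine enzymes with dairy, against casein. With only the brighter genes, transporters stood at 0.028 and serine enzymes at 0.0070 with leucine, and serine enzymes at −0.014 with dairy, against casein, and asparagine enzymes at 0.11 for leucine against dairy. With arrays left out, leucine against casein ranged from −0.42 to 0.073 for ATF4-induced factors, −0.42 to 0.028 for transporters, −0.11 to −0.045 for serine enzymes, −0.16 to 0.027 for transsulfuration, 0.0078 to 0.17 for eIF2 genes, −0.12 to 0.21 for sestrins and −0.19 to −0.0051 for reticulum stress. Dairy against casein ranged from −0.26 to 0.036, −0.33 to −0.024, −0.10 to −0.045 and −0.16 to 0.16 for the first 4 of these and from −0.10 to 0.054 for reticulum stress. Leucine against dairy ranged from −0.10 to 0.014 for ATF4-induced factors, −0.033 to 0.0095 for serine enzymes, −0.029 to 0.076 for eIF2 genes and −0.077 to 0.13 for sestrins.

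The number of arrays, 2 per diet, limits the precision of every value given here.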
